A study of Mus musculus with 36 samples.

Results

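Malat1, Neat1, Miat, Meg3, Rian, Mirg and Kcnq1ot1 are 7 long non-coding RNAs (lncRNAs) known for work inside the nucleus, and their place in sucrose gradients of embryonic mouse cortex is described here. They were taken by gene symbol from the counts of 55487 genes, all 7 were found, and all 7 passed the filter on low counts. Polysome fractionation spins a cleared lysate through sucrose and sorts RNAs by how fast they sediment, with single ribosomes (monosomes) apart from mRNAs that carry several (polysomes). There were 36 libraries from pooled cortices of 2 female embryos at stage E14.5: 2 crosses, 2 genotypes and 3 fractions (input, monosome, polysome), with 3 pools a group. In the LoF cross, conditional heterozygotes (cHet) were Emx1-Cre/+;Ddx3x lox/+ and their controls Ddx3x lox/+, so the controls carried the floxed allele and no Cre. In the T532M cross, cHet were Emx1-Cre/+;Ddx3x-T532M lox/+ and their controls Emx1-Cre/+, so both genotypes carried Cre. Ddx3x encodes an X-linked RNA helicase that aids the start of translation. Emx1-Cre acts in the dorsal telencephalic lineage, so vessels, blood, microglia and most interneurons of a pool keep both Ddx3x alleles. The shared replicate number of the 3 fractions was read as 1 pool, which gives 12 pools. Whether pools shared litters or days is not stated, so the p-values measure only the spread between these libraries.

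As background, Malat1 collects in nuclear speckles, Neat1 is the scaffold of paraspeckles, and Miat (also called Gomafu) forms its own nuclear domains in neurons and binds splicing factors. Meg3, Rian and Mirg are read from the maternal copy of the imprinted Dlk1-Dio3 locus and host microRNAs or small nucleolar RNAs, while Kcnq1ot1 is read from the paternal copy of the Kcnq1 domain and silences neighbouring genes in cis. None of the 7 is known as a protein-coding mRNA. A gradient fraction holds every particle that sediments at its rate, so an RNA found there need not carry a ribosome. The input was taken from a detergent lysate after a clearing spin and is therefore not total tissue RNA. The sources used here do not state how the 12 gradient fractions were divided into monosome and polysome, or how ribosomal RNA was removed.

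On the GRCm38 build, Malat1 lies at chr19:5795690-5802672 and Neat1 at chr19:5824708-5845478, neighbours on the minus strand. The longest annotated transcript of each is 1 unspliced exon, of 6983 nt in Malat1 and 20771 nt in Neat1. Their 3′ ends carry U-rich stretches and an A-rich tract, known to fold into a triple helix that protects an end with no poly(A) tail. These stretches are shown because that end sets the 2 RNAs apart from ordinary mRNAs. The sequences are from GENCODE M21, 5′ to 3′, with runs of 4 or more A or T in capitals.
Malat1, chr19:5795982-5796081, minus strand: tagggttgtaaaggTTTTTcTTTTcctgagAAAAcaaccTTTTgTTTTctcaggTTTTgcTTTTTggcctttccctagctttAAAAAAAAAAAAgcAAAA
Neat1, chr19:5824708-5824807, minus strand: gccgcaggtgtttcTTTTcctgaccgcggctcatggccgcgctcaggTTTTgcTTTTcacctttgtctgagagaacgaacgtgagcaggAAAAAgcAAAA
The stretch of Malat1 held 9 such runs in 100 bases and that of Neat1 held 5.

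Miat lies at chr5:112213228-112229395 on the minus strand, in 7 exons in its longest annotated transcript, which spans 9163 nt. Its known feature is a repeated ACTAAC, close to the branch point signal of introns that the splicing factor Sf1 recognises. A window of 151 bases with 4 copies, in exon 7 of the transcript of 8758 nt, is shown with each ACTAAC in capitals.
Miat, chr5:112217309-112217459, minus strand: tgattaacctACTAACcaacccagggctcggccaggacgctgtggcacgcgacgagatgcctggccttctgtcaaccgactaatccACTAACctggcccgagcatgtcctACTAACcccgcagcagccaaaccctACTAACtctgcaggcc
That transcript held 11 copies of ACTAAC on its own strand, 6 of them within the longer TACTAAC. The longest transcript, of 9163 nt, also held 11 on its own strand, and 0 on the other strand. Of 2055 annotated transcripts of 7006 to 10947 nt, 0.146% held as many copies of ACTAAC and 0.0973% as many of TACTAAC. These shares include Miat itself: the transcripts came from Miat and Fam186a for ACTAAC, and from Miat alone for TACTAAC. Malat1 and Rian held 0 copies on their own strand and Meg3 and Mirg 1 each in their longest transcripts, while Neat1 held 4 in 20771 nt and Kcnq1ot1 20 in 93092 nt. A match is a description of the letters and shows no binding in these samples.

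Meg3 (chr12:109541001-109571726), Rian (chr12:109603808-109661716) and Mirg (chr12:109729764-109749460) follow each other on the plus strand. RefSeq places 1 microRNA hairpin inside Meg3, 3 inside Rian and 14 inside Mirg. A hairpin of each host is shown from RefSeq on GRCm38.p6, with the mature arms in capitals, because fragments over these stretches could not be counted for the host.
Mir770 in an exon of Meg3, chr12:109563692-109563785, plus strand: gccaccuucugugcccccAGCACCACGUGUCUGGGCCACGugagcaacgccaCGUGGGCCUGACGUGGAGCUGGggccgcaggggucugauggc
Mir370 in an intron of Rian, chr12:109618258-109618336, plus strand: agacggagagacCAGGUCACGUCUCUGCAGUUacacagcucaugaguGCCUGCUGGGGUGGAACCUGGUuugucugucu
Mir134 in an exon of Mirg, chr12:109734139-109734209, plus strand: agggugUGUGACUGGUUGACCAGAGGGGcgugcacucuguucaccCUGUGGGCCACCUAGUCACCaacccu
The deposited counting gave a fragment that overlaps 2 genes of the same strand to neither. The 4 genes annotated inside Meg3, the 18 inside Rian and the 14 inside Mirg on the same strand all had 0 reads in all 36 libraries. They cover 1.15% of the span of Meg3, 2.46% of Rian and 5.45% of Mirg.

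Kcnq1ot1 lies at chr7:143203458-143296549 on the minus strand and is annotated as 1 unspliced exon of 93092 nt. It runs antisense to Kcnq1, a potassium channel gene, and overlaps 1 of the 16 exons of a Kcnq1 transcript. Counting used strand, so reads of Kcnq1 on the plus strand were not added to Kcnq1ot1. Counts were taken over whole gene spans, introns included, and exons cover 57.5% of the span of Miat, 58.9% of Meg3, 31.6% of Rian and 37.02% of Mirg. The longest reading frame from an ATG to a stop had 64 codons in Malat1, 126 in Neat1, 98 in Miat, 186 in Meg3, 76 in Rian, 101 in Mirg and 250 in Kcnq1ot1.

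Library totals ran from 36999365 to 57935512 read pairs, and the 7 RNAs took 0.0283 to 0.0650% of input libraries, 0.166 to 0.292% of monosome libraries and 0.00755 to 0.0155% of polysome libraries. Emx1 was at 62.8 to 88.1 CPM (the usual count unit, relative to the library size scaled by the trimmed mean of M values, TMM) in input,, and 11 of 12 dorsal cortex markers were detected in all input libraries, with a summed level of 2342 to 3115 CPM. Ddx3x in input was at 88.8 to 153 CPM in LoF controls and 61.1 to 115 CPM in LoF cHet, and at 49.0 to 148 CPM in T532M controls and 167 to 241 CPM in T532M cHet. In the monosome it was at 277 to 339 CPM in LoF controls, 176 to 251 in LoF cHet, 299 to 360 in T532M controls and 281 to 357 in T532M cHet. In the polysome the same 4 groups held 2084 to 2576, 1688 to 2196, 2339 to 3521 and 4078 to 5941 CPM of Ddx3x. Counts over the whole gene do not tell its alleles apart. Ttr, the main product of choroid plexus, reached 156 CPM in LoF control pool 1, 179 in LoF control pool 3, 38.3 in LoF cHet pool 1 and 181 in T532M cHet pool 1, and was under 10 CPM in the other 8 input libraries. The summed level of all 9 choroid plexus and hem markers ran from 10.4 to 246 CPM in input. Values without these 4 pools are given beside a number of results. Leaving them out keeps 1 LoF control pool and 2 LoF cHet pools, so any p-value for LoF controls then assumes that the single pool varies like the other groups.

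Per kilobase of gene span, the scale on which genes can be compared, Malat1 was the most abundant of the 7 in every fraction. In input its mean level over all 12 pools was 13.1 ± 9.73 CPM per kb (SD, n = 12), followed by Miat at 3.71 ± 0.750 and Rian at 2.15 ± 0.475. Miat and Rian overlapped between pools. Meg3 stood at 0.409 ± 0.0795 CPM per kb, and Mirg (0.0724 ± 0.0182) and Neat1 (0.0542 ± 0.0228) overlapped. Kcnq1ot1, counted over its long span, was lowest at 0.00831 ± 0.00357 CPM per kb. The order was another in the monosome, with Malat1 at 167 ± 33.4 CPM per kb, Miat at 31.6 ± 6.71, Meg3 at 3.08 ± 0.648 and Rian at 1.43 ± 0.232. Kcnq1ot1, Neat1 and Mirg then overlapped, at 0.0873, 0.0791 and 0.0762 CPM per kb. In the polysome Rian (0.373 ± 0.0683) and Meg3 (0.333 ± 0.0742) overlapped below Malat1 and Miat, and Kcnq1ot1 (0.0758 ± 0.0200) stood above Neat1 (0.0147) and Mirg (0.0130). Spans with long introns lower such values, and in bulk samples fewer cells of a type and less RNA per cell cannot be told apart.

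**Figure D1:**
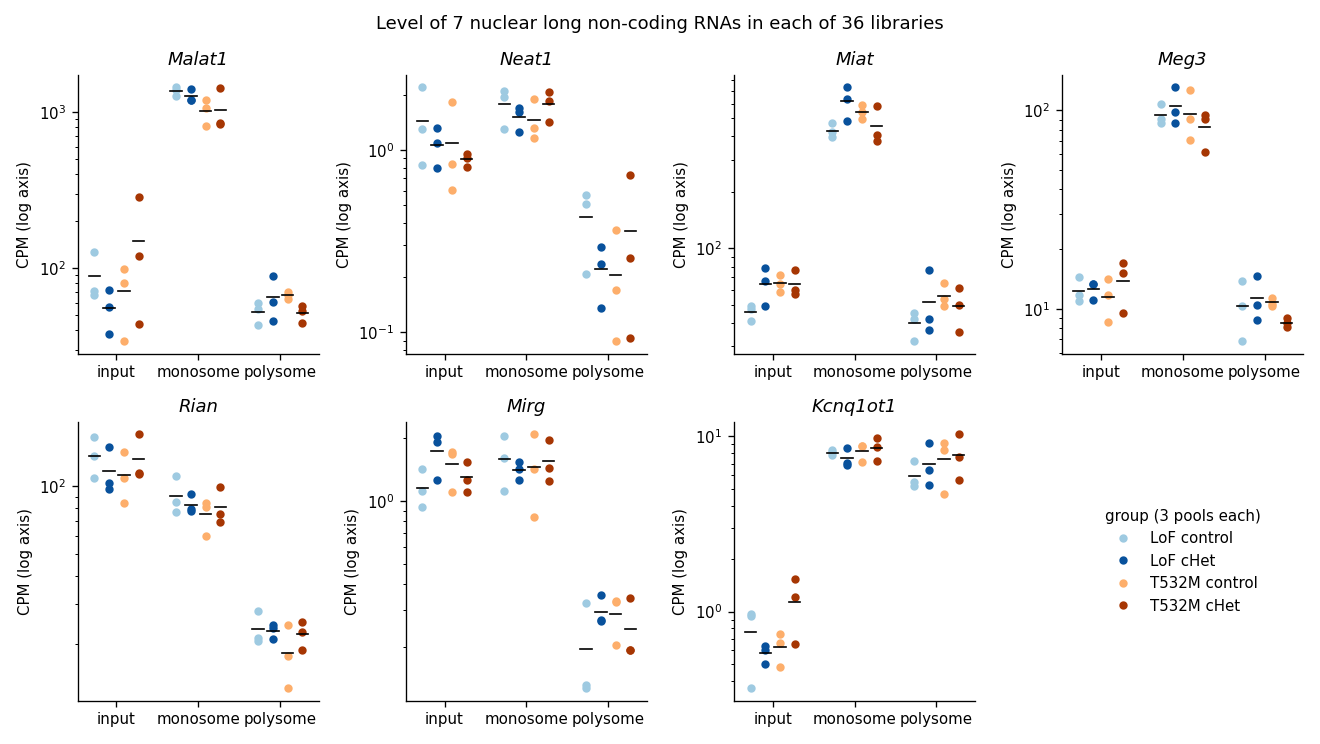
Level of each RNA in CPM (log axis, a range of its own for each panel) in the 3 fractions, with 1 point for each of 36 libraries and a black line at the mean of each group of 3 pools. Malat1, Miat and Meg3 stand high in the monosome alone, Kcnq1ot1 is low in input alone, Rian falls from input to polysome, and Neat1 and Mirg are low in the polysome.

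Malat1, Miat and Meg3 had their highest levels in the monosome libraries. CPM are relative to each library and do not give the amount of an RNA in a fraction. Over the 12 pools, Malat1 ran from 34.1 to 285 CPM in input (median 72.0), from 809 to 1434 CPM in the monosome (median 1200) and from 43.3 to 89.0 CPM in the polysome (median 58.4). Miat ran from 40.8 to 78.3 CPM in input (median 59.1), from 377 to 732 CPM in the monosome (median 489) and from 31.8 to 76.8 CPM in the polysome (median 47.1). Meg3 ran from 8.52 to 16.99 CPM in input (median 12.6), from 61.9 to 131 CPM in the monosome (median 90.8) and from 6.87 to 14.7 CPM in the polysome (median 10.3). For each of the 3 RNAs every monosome library stood above every input and every polysome library. The share of all genes was counted in the 3 control pools of each cross. There the monosome stood wholly above input for 36.7% of all genes in LoF controls and 36.5% in T532M controls. The polysome stood wholly below the monosome for 46.5% and 46.1%.

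In LoF controls the monosome exceeded the input 15.2-fold for Malat1 (log2 3.93, SE 0.28, adjusted p 4.71e-10), 9.35-fold for Miat (log2 3.22, SE 0.25, adjusted p 1.21e-09) and 7.63-fold for Meg3 (log2 2.93, SE 0.22, adjusted p 1.202e-09). In T532M controls the folds were 13.9 for Malat1 (adjusted p 2.23e-06), 8.04 for Miat (adjusted p 5.76e-10) and 8.10 for Meg3 (adjusted p 4.69e-09). Among 18556 genes tested in the LoF cross, Malat1 had the 234th largest monosome to input difference, Miat the 526th and Meg3 the 705th. The polysome lay far below the monosome for all 3. Malat1 fell 25.8-fold in LoF controls (log2 -4.69, SE 0.29, adjusted p 1.39e-11) and 15.1-fold in T532M controls (log2 -3.91, SE 0.50, adjusted p 8.91e-07). Miat fell 10.9-fold and 9.58-fold (adjusted p 1.52e-10 and 4.88e-11) and Meg3 9.16-fold and 8.85-fold (adjusted p 1.24e-10 and 1.02e-09).

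Polysome and input levels of these 3 RNAs lay close together. Miat had log2 differences of -0.22 (95% interval -0.70 to 0.26) in LoF controls and -0.25 (-0.65 to 0.15) in T532M controls, and Meg3 of -0.26 (-0.72 to 0.19) and -0.13 (-0.62 to 0.36), with 0 of these 4 passing the test. Malat1 was lower in the polysome of LoF controls (log2 -0.76, SE 0.25, adjusted p 0.00987), where input was 127, 67.6 and 71.2 CPM and the polysome 43.3, 59.9 and 54.9 CPM. Without LoF control pool 1, the highest in input, the difference was -0.29 (adjusted p 0.340), and in the single LoF control pool low in Ttr, 1 library a fraction, it was -0.22. In T532M controls Malat1 gave -0.11 (-1.05 to 0.82). All of these polysome values depend on scaling. With library totals alone in place of TMM factors, the median of all genes moved by -0.84 and -0.92 in this comparison, and Miat (-1.06 and -1.18) and Meg3 (-1.10 and -1.06) were then called lower in both crosses, and Malat1 also in T532M controls (-1.04, adjusted p 0.0306).

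Kcnq1ot1 was the only one of the 7 called higher in the polysome than in input. It had 19 to 75 read pairs in input (0.366 to 1.52 CPM, median 0.659), 338 to 547 in the monosome (6.90 to 9.81 CPM, median 8.23) and 156 to 338 in the polysome (4.71 to 10.3 CPM, median 6.87). Every monosome and polysome library stood above every input library. In the 3 control pools of each cross, the monosome stood wholly above input for 36.7% (LoF) and 36.5% (T532M) of all genes. The polysome did so for 37.4% and 37.1%. The monosome exceeded input 10.5-fold in LoF controls (log2 3.39, SE 0.27, adjusted p 1.84e-09) and 12.6-fold in T532M controls (log2 3.66, SE 0.32, adjusted p 1.31e-08). The polysome exceeded input 7.75-fold (log2 2.95, SE 0.27, adjusted p 4.62e-09) and 11.5-fold (log2 3.52, SE 0.32, adjusted p 7.90e-09). In the single LoF control pool low in Ttr, which had the lowest Kcnq1ot1 input of all 12 pools (19 read pairs), the log2 differences from input were larger, 4.40 for the monosome and 3.84 for the polysome.

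Between polysome and monosome Kcnq1ot1 did not pass the test. In LoF controls the monosome held 7.82, 8.14 and 8.32 CPM and the polysome 5.21, 5.46 and 7.28 CPM, which did not overlap. Groups stood apart in either direction for 84.2% of all genes in that comparison. The log2 difference of Kcnq1ot1 was -0.43 (95% interval -0.92 to 0.05, adjusted p 0.0896). With each pool as a replicate block it was -0.45 and passed (adjusted p 0.0354), and in a fit of these groups alone it was -0.41 (adjusted p 0.0163). In T532M controls the monosome held 8.79, 8.81 and 7.17 CPM and the polysome 8.33, 9.17 and 4.71 CPM, with a difference of -0.14 (-0.70 to 0.43). With library totals alone the differences were -1.26 and -1.15 and both passed, while the median of all genes moved by -0.81 and -0.97.

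Rian was highest in input. It ran from 84.1 to 171 CPM in input (median 114), from 60.4 to 111 CPM in the monosome (median 80.0) and from 12.7 to 27.8 CPM in the polysome (median 21.95). In each of the 12 pools the monosome lay below the input of the same pool, at 0.566 to 0.792 of it, and the polysome below the monosome, at 0.211 to 0.361. In LoF controls input was 136, 166 and 110 CPM and the monosome 76.9, 111 and 85.5 CPM, which overlapped, with a log2 difference of -0.60 (SE 0.18, adjusted p 0.00644). In T532M controls input was 142, 110 and 84.1 CPM and the monosome 84.8, 80.9 and 60.4 CPM, with a difference of -0.63 (SE 0.24, adjusted p 0.0269). Leaving out 1 pool kept the direction and a like size, but the test was no longer passed without LoF control pool 1 (-0.49, adjusted p 0.0693), T532M control pool 1 (-0.50, adjusted p 0.0931) or T532M control pool 2 (-0.71, adjusted p 0.0585). From monosome to polysome Rian fell 3.93-fold and 4.09-fold (adjusted p 8.09e-09 and 4.91e-07), and against input the polysome was lower by 5.95-fold and 6.32-fold (adjusted p 2.11e-10 and 1.504e-08).

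Mirg and Neat1 were rare in every fraction and lowest in the polysome. Mirg had 53 to 113 read pairs in input (0.933 to 2.06 CPM), 44 to 111 in the monosome (0.839 to 2.09 CPM) and 4 to 13 in the polysome (0.127 to 0.353 CPM). Neat1 had 30 to 119 in input (0.602 to 2.21 CPM), 59 to 119 in the monosome (1.16 to 2.11 CPM) and 3 to 21 in the polysome (0.0896 to 0.732 CPM). Input and monosome overlapped for both. Their log2 differences were 0.45 (95% interval -0.14 to 1.05) and -0.11 (-0.76 to 0.54) for Mirg and 0.30 (-0.40 to 1.00) and 0.39 (-0.56 to 1.343) for Neat1, in LoF and T532M controls. Mirg fell 8.01-fold and 4.89-fold from monosome to polysome (adjusted p 2.98e-07 and 1.82e-05), and Neat1 4.19-fold and 6.92-fold (adjusted p 7.68e-05 and 0.000179). Against input the polysome was lower for Mirg (log2 -2.55 and -2.40, adjusted p 3.13e-06 and 1.03e-05) and for Neat1 (-1.77 and -2.40, adjusted p 0.000405 and 0.000832).

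Counted over the 7 RNAs, 4 were higher in the monosome than in input and 1 was lower, in each cross. Of all genes tested, 32.2% were higher and 30.6% lower in LoF controls, and 32.1% and 31% in T532M controls. Against the monosome, 6 of 7 were lower in the polysome and 0 higher, where 44.9% of all genes were lower and 36.4% higher in the LoF cross and 43.9% and 36% in the T532M cross. In polysome against input, 4 were lower and 1 higher in LoF controls (42.8% and 36.5% of all genes), and 3 lower and 1 higher in T532M controls (42.4% and 36.6%). The median log2 difference of the 7 from monosome to polysome was -3.00 and -2.79, beside -0.31 and -0.31 over all genes tested.

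Ratios of read pairs between 2 of the RNAs within a library do not depend on scaling, and they show how unlike these RNAs were in the gradient. Rian and Meg3 are consecutive hosts of the Dlk1-Dio3 locus. Rian had 7.57 to 14.1 times as many read pairs as Meg3 in input, 0.668 to 1.21 times in the monosome and 1.23 to 2.99 times in the polysome. Meg3 had 6.50 to 13.8 times as many as Mirg in input and 44.1 to 85.2 times in the monosome. These ranges over 12 pools did not overlap between input and monosome. Malat1 to Kcnq1ot1 ran from 51.3 to 187 in input, from 86.3 to 197 in the monosome and from 5.52 to 14.3 in the polysome, so that the polysome alone stood apart. Miat to Meg3 overlapped in all 3 fractions, at 3.26 to 6.85, 4.35 to 6.98 and 3.25 to 6.84. Malat1 to Neat1, neighbours on chromosome 19, ran from 40.6 to 351 in input and from 422 to 1110 in the monosome.

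**Figure D2:**
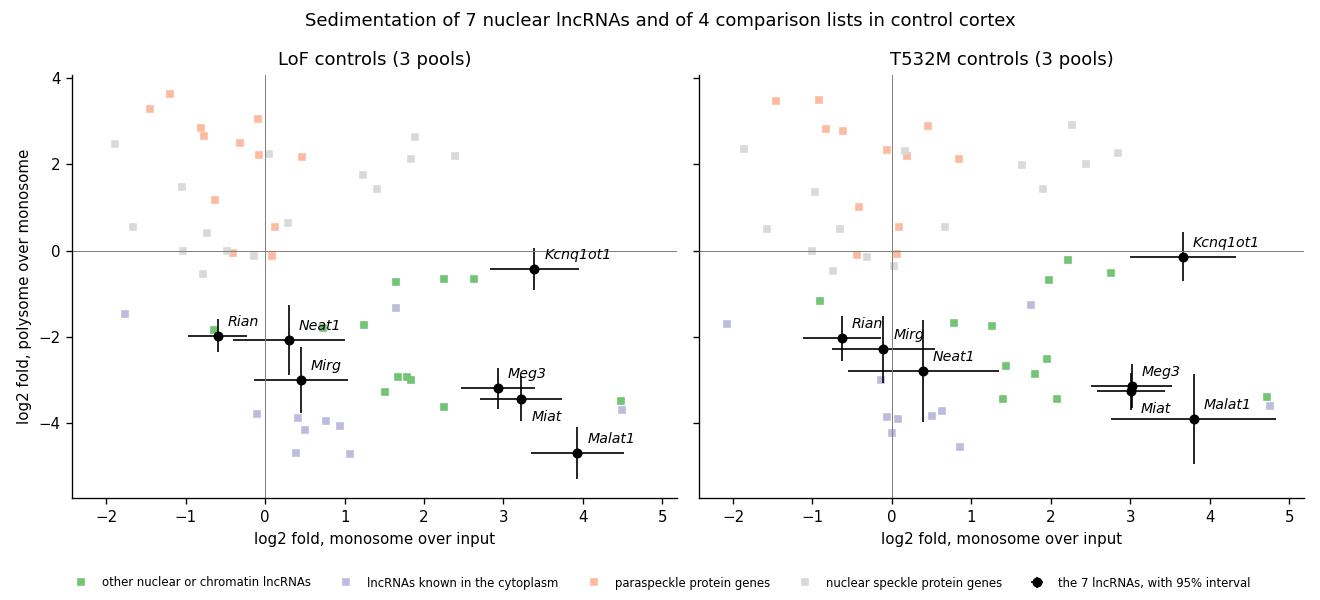
Log2 fold of polysome over monosome (vertical axis) against monosome over input (horizontal axis) in the 3 control pools of each cross, with 95% intervals for the 7 RNAs (black points) and without intervals for 4 gene lists (squares). Malat1, Miat and Meg3 lie at the lower right, Kcnq1ot1 at the right near 0 on the vertical axis, and Rian, Mirg and Neat1 at the lower left and centre, while most paraspeckle and nuclear speckle protein genes lie above 0.

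Other nuclear or chromatin lncRNAs were mostly higher in the monosome as well. Of 12 tested out of 15 listed, 11 were higher and 0 lower in the monosome than in input in LoF controls (median 1.73). In T532M controls 10 were higher and 1 lower (median 1.88). Of all genes, 32.2% and 32.1% were higher in these 2 comparisons. In the polysome 12 and 10 of the list were lower than in the monosome, with medians of -2.38 and -2.14, beside 44.9% and 43.9% of all genes. Snhg14, the long antisense transcript of the Prader-Willi domain, had log2 differences of 4.48 and 4.72 from input to monosome and -3.48 and -3.40 from there to the polysome. Firre, an X-linked nuclear organiser, had 2.25 and 2.07, then -3.63 and -3.45. Xist, which coats the inactive X chromosome, and Airn, which silences the Igf2r domain, had smaller differences between monosome and polysome. Xist had 2.63 and 2.76, then -0.65 (adjusted p 0.00695) and -0.53 (adjusted p 0.0710). Airn had 2.25 and 2.21, then -0.65 (adjusted p 0.00492) and -0.23 (adjusted p 0.375). LncRNAs known in the cytoplasm were lower in the polysome too, 10 of 10 tested in both crosses, with medians of -3.92 and -3.78. Of the same 10, 8 were higher in the monosome than in input in LoF controls and 5 in T532M controls. In each cross 1 was lower, and the medians were 0.64 and 0.29. Among the 10, Oip5os1 (Cyrano) had 4.49 and 4.76 from input to monosome, Gas5, a small nucleolar RNA host, had 0.94 and 0.63, and H19 had -1.76 and -2.08.

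Most protein genes of the paraspeckle and nuclear speckle lists were higher in the polysome. Of all genes tested, 36.4% were higher and 44.9% lower in the polysome than in the monosome in LoF controls. In T532M controls these shares were 36% and 43.9%, and they stand beside each list count in this paragraph. Of 12 paraspeckle protein genes tested, 10 were higher in the polysome than in the monosome and 0 lower in each cross, with medians of 2.36 and 2.26. Nono and Sfpq, RNA-binding proteins of the paraspeckle that Neat1 builds, had log2 differences of 2.65 and 3.06 in LoF controls. Of 15 nuclear speckle protein genes, 11 were higher and 1 lower in each cross, with medians of 1.42 and 1.36, and Son, the speckle scaffold, had 1.76 and 1.98. Of the 3 splicing factors known to bind Miat, Sf1 was higher in the polysome than in the monosome in both crosses (1.87 and 1.77), Celf3 in LoF controls (0.28, adjusted p 0.0472, and 0.13 in T532M controls, adjusted p 0.440), and Qk in neither (0.05 and 0.11). At the Dlk1-Dio3 locus 2 of 4 protein genes were higher in the polysome than in the monosome and 1 lower in each cross. Dlk1, a Notch-like ligand, had 1.28 and 1.19, Rtl1, a retrotransposon-derived gene, 2.87 and 2.67, and Begain -0.65 and -0.92. Rtl1 was near the floor, at 0.0879 ± 0.0837 CPM in the monosome and 0.617 ± 0.541 CPM in the polysome of the 6 control pools. In the Kcnq1 domain 4 of 7 tested were higher and 3 lower. Cdkn1c, a cell cycle inhibitor silenced in cis by Kcnq1ot1, had 2.54 and 2.49, and Kcnq1 itself, antisense to Kcnq1ot1, -1.52 and -1.29.

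The genes most like each RNA were ranked by the root mean square (RMS) difference of the 12 group means of log2 CPM, each gene centred on its own mean, over 11498 named genes of at least 2 CPM. Miat and Meg3 appeared in each other's lists, at an RMS of 0.215, with Meg3 the closest of all genes to Miat. Nr6a1os stood first for Malat1 (RMS 0.358), Mapk1ip1 first for Meg3 (0.172) and Hddc2 first for Rian (0.132). Manbal stood first for Mirg (0.160), Fam163a for Neat1 (0.195) and Zmym5 for Kcnq1ot1 (0.115). Zmym5 had mean levels of 9.85 CPM in input, 105 CPM in the monosome and 87.8 CPM in the polysome. Among the 7, Rian and Mirg were at 0.373 and Rian and Kcnq1ot1 farthest apart at 2.38. The most alike genes of each, from its first 3, were Nr6a1os, Tmem181b-ps and Snhg11 for Malat1, Fam163a, Pxmp2 and Pfn4 for Neat1, and Meg3, Mapk1ip1 and Nr6a1os for Miat. They were Mapk1ip1, Spata1 and Miat for Meg3, Hddc2, Glipr2 and B9d1 for Rian, Manbal and Trnau1ap for Mirg, and Zmym5, Usp53 and Acbd5 for Kcnq1ot1. This ranking is a description over 12 groups that mostly reflects the 3 fractions.

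The question of the study's design was how cHet differed from their own controls, and 0 of the 7 RNAs passed the test by edgeR in any fraction of either cross. In the LoF cross, 0% of all genes passed in input, 0.0108% in the monosome and 0% in the polysome. In the T532M cross, 0.00548% passed in input, 1.03% in the monosome and 0% in the polysome. In the T532M monosome, where samples of 1 number deviated together, a replicate block raised the calls from 188 genes to 293 higher and 56 lower, again with 0 of the 7 RNAs. At an unadjusted p under 0.05 there were 3 of the 7 in LoF input, 1 in LoF monosome and 2 in T532M input, beside 10.8%, 4.2% and 10.7% of all genes. In the other 3 comparisons 0 of the 7 did, beside 3.23%, 11.8% and 7.92% of all genes in LoF polysome, T532M monosome and T532M polysome, and DESeq2 called 0 of the 7 in each of the 6.

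**Figure D3:**
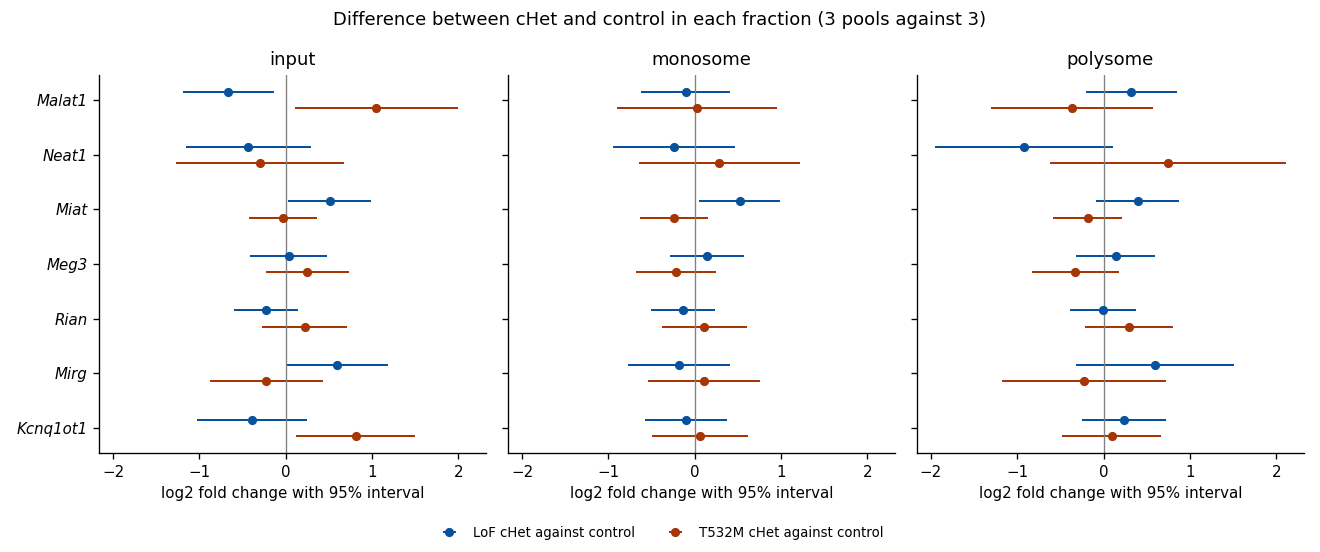
Log2 fold change of cHet against control with its 95% interval for each RNA, by fraction (panels) and cross (colours), 3 pools against 3. Most intervals include 0, and those of Malat1, Miat, Mirg and Kcnq1ot1 that do not were not called after adjustment over all genes.

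Malat1 in input had changes of opposite sign in the crosses. LoF controls held 127, 67.6 and 71.2 CPM and LoF cHet 37.7, 72.8 and 56.4 CPM, which overlapped, with a log2 change of -0.67 (95% interval -1.19 to -0.14, p 0.0157, adjusted p 0.314). T532M controls held 34.1, 98.9 and 79.8 CPM and T532M cHet 285, 119 and 43.7 CPM, with a change of 1.05 (0.11 to 1.99, p 0.0307, adjusted p 0.427). The library at 285 CPM was cHet pool 1, with 181 CPM of Ttr. Without it the change was 0.19 (adjusted p 0.921), and without the 3 LoF pools rich in Ttr the LoF change was -0.05. Malat1 in the input of those 3 was at 127 CPM in LoF control pool 1 (Ttr 156 CPM), 71.2 in LoF control pool 3 (Ttr 179) and 37.7 in LoF cHet pool 1 (Ttr 38.3). The part of other cell types in these values was not tested. In the monosome Malat1 differed by -0.10 (-0.62 to 0.41) in the LoF cross and 0.03 (-0.90 to 0.96) in the T532M cross. In the polysome the changes were 0.32 (-0.20 to 0.85) and -0.37 (-1.31 to 0.57). With no filter on low counts Malat1 passed in input in both crosses (adjusted p 0.00170 and 0.0375), though its changes hardly moved (-0.67 and 1.06). The share of all genes that passed in that fit is not reported here.

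Neat1 had changes of -0.43 (95% interval -1.15 to 0.29) in LoF input and -0.30 (-1.27 to 0.67) in T532M input. In the polysome, at 3 to 21 read pairs a library, it gave -0.93 (-1.96 to 0.11) and 0.75 (-0.62 to 2.12). Without the pools rich in Ttr the LoF changes of Neat1 were 0.55 in input and 0.04 in the polysome, and leaving out 1 pool each time gave -0.23 to 1.43 in the T532M polysome. For Miat in LoF input, controls held 47.1, 49.1 and 40.8 CPM and cHet 66.9, 49.0 and 78.3 CPM (log2 0.51, 0.03 to 0.99, p 0.0379, adjusted p 0.419). In the monosome controls held 424, 470 and 396 CPM and cHet 732, 484 and 637 CPM, with every cHet pool above every control pool (log2 0.52, 0.05 to 0.99, p 0.0324, adjusted p 0.9997). Groups stood apart in either direction for 10.6% of all genes in that comparison, and without the pools rich in Ttr the change of Miat was 0.24. In the polysome the change of Miat was 0.40 (-0.08 to 0.88). The T532M cross gave Miat changes of -0.03, -0.24 and -0.18 in input, monosome and polysome. With no filter Miat passed in LoF input (0.50, adjusted p 0.0280).

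Of the 3 hosts of the Dlk1-Dio3 locus, Meg3 had changes from 0.03 to 0.14 over the fractions of the LoF cross (0.07, -0.24 and -0.12 without the pools rich in Ttr, in input, monosome and polysome), and 0.25, -0.22 and -0.33 in input, monosome and polysome of the T532M cross. In T532M polysomes Meg3 was at 10.3 to 11.4 CPM in controls and 8.05 to 8.98 CPM in cHet, which did not overlap, and Malat1 too was lower in all cHet pools (44.3 to 56.9 CPM beside 63.2 to 70.2 CPM). Neither passed (adjusted p 0.750 and 0.859), and groups stood apart for 8.8% of all genes there. Rian had changes of -0.22, -0.14 and -0.01 in the LoF cross and 0.22, 0.11 and 0.30 in the T532M cross. Without the 3 LoF pools rich in Ttr, which leaves 1 control pool against 2 cHet pools, the change of Rian was -0.70 in LoF input and -0.51 in LoF monosome. That single control pool had the highest Rian of its group in all 3 fractions, at 166, 111 and 27.8 CPM. Mirg was at 0.933 to 1.43 CPM in LoF control input and 1.26 to 2.06 CPM in cHet input (log2 0.60, 0.01 to 1.19, p 0.0482, adjusted p 0.460), and the change was 0.16 without the pools rich in Ttr.

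Kcnq1ot1 in input held 0.664, 0.741 and 0.481 CPM in T532M controls and 1.52, 1.205 and 0.654 CPM in T532M cHet, on 24 to 75 read pairs, with a log2 change of 0.81 (95% interval 0.12 to 1.503, p 0.0238, adjusted p 0.412). Without cHet pool 1 the change was 0.54 (adjusted p 0.756). In LoF input the change was -0.39 (-1.03 to 0.25), and it turned to 0.59 without the pools rich in Ttr. Monosome changes of Kcnq1ot1 were -0.10 (-0.58 to 0.37) and 0.06 (-0.49 to 0.62), and polysome changes 0.24 (-0.25 to 0.73) and 0.09 (-0.48 to 0.66).

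**Figure D4:**
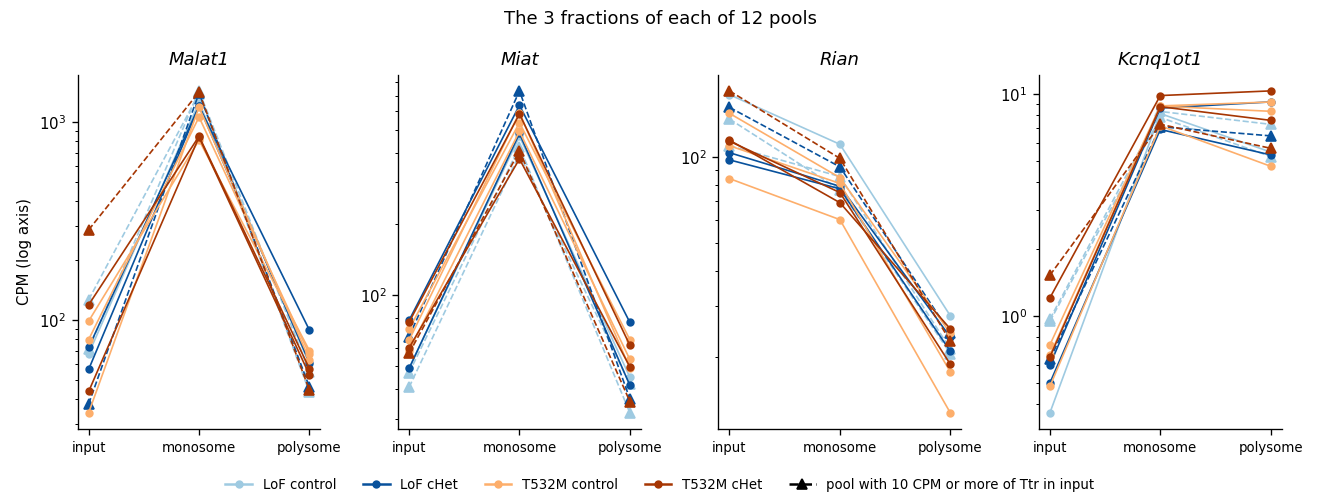
Level in CPM (log axis) of 4 of the RNAs in the 3 fractions of each of 12 pools, 1 line a pool, with dashed lines and triangles for the 4 pools at 10 CPM or more of Ttr in input. The T532M cHet pool rich in Ttr is the highest in input for Malat1 (285 CPM), Rian (171 CPM) and Kcnq1ot1 (1.52 CPM).

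The change of the genotype effect between fractions asks whether an RNA sedimented differently in cHet. None of the 7 passed in the 6 such tests. In the LoF cross 0.0108% of all genes passed for polysome over input, 0% for polysome over monosome and 0% for monosome over input, and in the T532M cross 0%, 0.0603% and 0.00548%. Malat1 had the largest values for polysome over input, 0.99 (95% interval 0.25 to 1.73, p 0.0118, adjusted p 0.715) in the LoF cross and -1.42 (-2.75 to -0.09, p 0.0380, adjusted p 0.805) in the T532M cross. Both use the input levels given above, and without the pools rich in Ttr they were 0.39 and -0.48. With no filter the LoF value passed (0.98, adjusted p 0.00526). For polysome over monosome, which does not use input, Malat1 gave 0.43 (-0.31 to 1.17) and -0.39 (-1.72 to 0.93), Miat -0.13 and 0.06, Meg3 0.00 and -0.11, Rian 0.13 and 0.19 and Kcnq1ot1 0.34 and 0.03. Mirg (0.78 and -0.33) and Neat1 (-0.69 and 0.46), at few polysome reads, had the values farthest from 0 in the LoF cross. At an unadjusted p under 0.05, 0 of the 7 passed for polysome over monosome or monosome over input in either cross, and Malat1 alone for polysome over input in both. Of all genes in the LoF cross, 6.87% did for polysome over input, 3.02% for polysome over monosome and 5.04% for monosome over input. In the T532M cross these shares were 6.1%, 6.85% and 5.91%. DESeq2 called 0 of the 7 in all 6.

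The genotype effects of the crosses were compared through their difference in a fit of all 36 libraries. Of all genes, 0.0105% differed in input, 0% in the monosome and 0% in the polysome, and 0 of the 7 RNAs did. Malat1 in input came nearest, with the LoF effect below the T532M effect by a log2 difference of -1.74 (95% interval -2.87 to -0.60, p 0.00383, adjusted p 0.0971). It passed with DESeq2 (-1.66, adjusted p 0.0492), with no filter (-1.75, adjusted p 0.000652), without T532M control pool 2 (-2.05, adjusted p 0.0326) and without T532M cHet pool 3 (-2.18, adjusted p 0.0268). Without the 4 pools rich in Ttr it was -0.24. Kcnq1ot1 in input had -1.23 (-2.19 to -0.26, adjusted p 0.168), and 0.05 without those pools. Miat in the monosome had 0.76 (0.12 to 1.40, adjusted p 0.667). These were the only 3 of the 21 values with an unadjusted p under 0.05. Of all genes, 15.9% had such a p in input, 6.69% in the monosome and 5.59% in the polysome.

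The controls of the crosses differ in Cre, in the floxed allele and in the cross, which cannot be told apart. Of all genes 0.0261% differed in input, 0.0366% in the monosome and 0.0105% in the polysome, and 0 of the 7 RNAs did. Miat was higher in every Emx1-Cre control than in every floxed control in all 3 fractions, at 58.4 to 71.8 CPM beside 40.8 to 49.1 in input, 494 to 592 beside 396 to 470 in the monosome and 49.2 to 64.9 beside 31.8 to 45.0 in the polysome. The log2 differences were 0.51 (adjusted p 0.641), 0.33 (adjusted p 0.874) and 0.51 (adjusted p 0.571). Groups stood apart for 12.1%, 17.2% and 13.7% of all genes. Malat1 was lower in every Emx1-Cre control in the monosome (809 to 1187 CPM beside 1256 to 1434, log2 -0.42, adjusted p 0.937) and higher in every one in the polysome (63.2 to 70.2 CPM beside 43.3 to 59.9, log2 0.35, adjusted p 0.816). At an unadjusted p under 0.05 Miat alone stood out, in input and polysome, beside 7.03% and 7.91% of all genes, and DESeq2 called 0 of the 7 in the 3 comparisons.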

How the data were processed

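RNA sequencing of polysome fractions was analysed from the deposited counts of read pairs per gene, which the authors made, per the file headers, with featureCounts 2.0.3 over whole gene spans (strand setting 2) on GENCODE M25, GRCm38. Settings of STAR 2.7.11a, named in the submitters' processing notes, are not given in the sources used here. The authors' deposited comparison tables were not used. Genes kept by filterByExpr were tested by edgeR's quasi-likelihood method (edgeR 4.0.16 in R 4.3.3) after TMM scaling, with Benjamini-Hochberg adjustment over all genes tested and a threshold of 0.05, in 1 fit of 18 libraries for each cross with a term for each of 6 groups, and 1 of all 36 libraries for differences between crosses. The fits tested 18556, 18243 and 19121 genes. CPM use TMM library sizes, as mean ± SD, and log2 CPM used a prior count of 3.

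The 7 RNAs and the gene lists were chosen with earlier results of these data known. Named were the 7 RNAs, Ddx3x, called list members (up to 4 a list) and the 3 genes most like each RNA; Begain, Xist, Airn, Qk and Celf3 stand beside them. Some genes that this rule names are not reported here. Deviations from group means of the fractions of 1 number correlated above 0.1 in 26 of 36 pairs (-0.23 to 0.63, 9645 genes). Sequences came from GENCODE M21 and RefSeq.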

Additional observations from a re-analysis of the deposited data

How the results depend on the processing

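The counts of called RNAs changed as follows. With no filter on low counts, 2 passed in LoF input (Malat1 and Miat), 1 in T532M input, 1 in the LoF change of polysome over input and 1 in the LoF minus T532M effect in input (Malat1 each time), where DESeq2 1.42.0 also called 1. The log2 values hardly moved, with Malat1 in LoF input at -0.67 with and without the filter. The share of all genes that passed without the filter is not reported here, so these calls cannot be set against it. Without the pools rich in Ttr, an alternative chosen after seeing the data, the LoF cross kept 1 control pool, so only effect sizes are given for it. With library totals alone, 6 in place of 3 were lower in polysomes than in input in T532M controls, and 6 in place of 4 in LoF controls. Leaving out 1 pool each time, 0 to 1 were lower in the monosome than in input in LoF controls and 0 to 1 in T532M controls, and 0 to 1 passed in the LoF minus T532M effect in input. Setting aside the fit without the pools rich in Ttr, no other count of called RNAs moved by over 1.5 times. No call changed sign under any of these alternatives.

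With a replicate block (the pool for fractions and their changes, the replicate number for genotypes and crosses), Kcnq1ot1 in polysome against monosome of LoF controls was called (-0.45, adjusted p 0.0354), and no other call of the 7 RNAs changed. Same-numbered genotypes correlated above 0.1 in 7 of 18 pairs, with all 3 pairs above it in the T532M monosome alone (0.25, 0.31 and 0.30). With library totals alone the median of all genes moved by -0.15 between control polysomes, and a fit of the compared groups alone moved it by 0.10 to 0.12 in 3 of the 4 comparisons of polysomes with another fraction. The polysome differences rest on TMM factors of 0.578 to 0.731 in polysomes and 1.15 to 1.27 elsewhere. Mirg and Neat1 in polysomes, at 3 to 21 read pairs, limit what could be detected.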
